A study of Mus musculus with 4 samples.

Results

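SR proteins and heterogeneous nuclear ribonucleoproteins (hnRNPs) are the 2 large groups of RNA-binding proteins that steer splice-site choice, and the messages that encode them are described here in RNA recovered with an antibody against DDX20. DDX20 (Gemin3) belongs to the DEAD-box helicases and to the SMN complex, the machinery that assembles spliceosomal small nuclear RNAs with their Sm core. Members were found by stripping the version from each Ensembl identifier of the deposited gene count table, mapping it to a mouse symbol, and taking every gene named Srsf or Hnrnp with its suffix, plus Tra2a and Tra2b. The rule gave 33 genes of the 55357 identifiers, 13 of them SR protein genes and 20 hnRNP genes, with no pseudogene among them. All 33 had enough counts to be tested.

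Testis cells came from C57BL/6 mice at 7 days of age, were crosslinked with ultraviolet light (200 mJ per square cm at 254 nm), and were lysed for precipitation with the DDX20 antibody. The 2 precipitated libraries (RIP) were compared with 2 libraries of input RNA made without antibody, from 10% of the total RNA. No genotype or treatment separated the groups, and RNA recovered with a control antibody was not analysed here. A higher value in RIP therefore means a larger share of the precipitated RNA than of the input, and does not by itself show binding by DDX20. The labels do not say whether the libraries of a group came from separate animals or cell preparations, so the p-values measure only the spread between these samples, which may be technical.

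SR proteins carry RNA recognition motifs followed by a tail rich in arginine and serine (the RS domain), and they mostly promote exon inclusion by binding enhancers in exons. Most hnRNPs coat nascent transcripts through recognition motifs, KH domains or glycine-rich stretches, and many of them favour exon skipping, so the groups often act against each other on the same exon. Both also work outside splicing, in RNA export, decay and translation. Many of their genes adjust their own messages by splicing in exons or retaining introns that mark the transcript for decay. In the testis the choice of splice sites changes widely as germ cells leave the mitotic state.

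Total counts were 21416567 to 38458014 per library. Once counts were halved, in case both mates of a pair were counted, replicates lay close to counting noise. The median chi-square statistic was then 1.191 times that of sampling noise between the inputs and 1.161 times between the RIP libraries. It was not computed on the counts as deposited, which the tests used and for which it would be larger. The tissue label was borne out by Sertoli cell markers such as Clu (2081 and 2058 CPM, counts scaled to library size, in the input) and by the germ cell genes Dazl and Stra8. Of 4 spermatid genes, Prm1, Prm2 and Acrv1 stood at or near 0 CPM in all 4 libraries. The other, Tnp1, was detected at 1.5 and 1.035 CPM in the input and was lower in RIP (0.148 and 0.266 CPM). Ddx20 messages themselves stood at 41.4 and 41.2 CPM in the input and at 77.6 and 83.2 CPM in RIP. CPM values are scaled by the trimmed mean of M values (TMM), and fold changes are relative to that scaling. Markers of several somatic and blood cell types moved with the groups: all 4 Leydig cell genes were lower in RIP (summed 245.4 and 238.6 CPM in the input, 103.7 and 106.0 CPM in RIP), as were all 3 macrophage genes (73.0 and 71.4, then 19.7 and 19.8 CPM) and all 3 red blood cell genes (244.4 and 246.6, then 70.4 and 69.6 CPM). Of 3 endothelial genes 2 were lower, and of 3 peritubular myoid genes 1, against 38.6% of all tested genes. Coding sequences of the red blood cell genes were 426 to 441 nt, and that of the macrophage gene Lyz2 444 nt. Among longer ones, Pecam1 (2148 nt, log2 fold change -1.14), Cdh5 (2352 nt, -2.32), Adgre1 (2793 nt, -1.65) and Csf1r (2931 nt, -0.31) were lower. Kdr (4035 nt, -0.15) and Myh11 (5937 nt, 0.12) did not pass the test. Of 7 Sertoli cell genes 2 were higher and 4 lower (2785 and 2752, then 1890.0 and 1890.0 CPM), and of 7 spermatogonial genes 3 were higher and 3 lower (257.9 and 251.1, then 140.1 and 140.5 CPM). The part of coding length in these marker shifts was not tested, nor was the part of cell type in the results on SR proteins and hnRNPs. The labels name testis cells for both groups, which differ by recovery with the antibody. A lower marker in RIP is therefore a smaller share of the recovered RNA and need not mean fewer cells of that type.

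The hnRNP messages were mostly over-represented in the precipitate and the SR protein messages were divided. Of 20 hnRNP genes, 17 were higher in RIP, 2 were lower and 1 did not pass the test, with a median log2 fold change of 0.59. Of 13 SR protein genes, 5 were higher, 6 were lower and 2 did not pass, with a median of -0.12. Calls rest on quasi-likelihood F tests in edgeR, with p adjusted by Benjamini-Hochberg across the 17422 tested genes and called under 0.05. Under it 38.7% of all tested genes were higher in RIP and 38.6% lower, 77.3% in all, and the median log2 fold change of all tested genes was -0.05. The SR share called higher, 38.5%, was close to that background, and the hnRNP share, 85%, lay above it. RIP and input libraries did not overlap in CPM for 88% of all tested genes, so separate libraries of a member are no particular trait.

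Most members were well expressed. Among genes with an input mean of at least 50 CPM, a class set after the data were seen, 54.7% were higher in RIP and 40.4% lower. Of the 19 hnRNP genes in that class 17 were higher and 2 lower, and of the 11 SR protein genes 4 were higher and 6 lower. The division also moves with scaling: with total counts, which shift the median of all genes to -0.40, 12 hnRNP genes were higher and 5 lower, and 3 SR protein genes were higher and 8 lower, against 28.7% and 50.8% of all genes. At least a 2-fold rise was called for 4 hnRNP genes and 1 SR protein gene, against 17.1% of all genes, and no member was called at least 2-fold lower, against 23.5% of all genes.

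Summed over the 20 genes, hnRNP messages made up 4210 and 4166 CPM of the input libraries and 6718 and 6647 CPM of the RIP libraries. The 13 SR protein messages summed to 1253 and 1215 CPM in the input and to 1208 and 1222 CPM in RIP. Both RIP libraries lay well above both input libraries for the hnRNP sum, whereas the SR sums overlapped between the groups on the TMM scale. As a share of total counts the SR protein messages did not overlap, at 0.141% and 0.137% of the input and 0.106% and 0.109% of RIP. The hnRNP shares were 0.474% and 0.470% of the input and 0.591% and 0.593% of RIP. The ratio of hnRNP to SR sums was 3.36 and 3.43 in the input and 5.56 and 5.44 in RIP, a ratio that no scaling between libraries can alter.

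**Figure D1:**
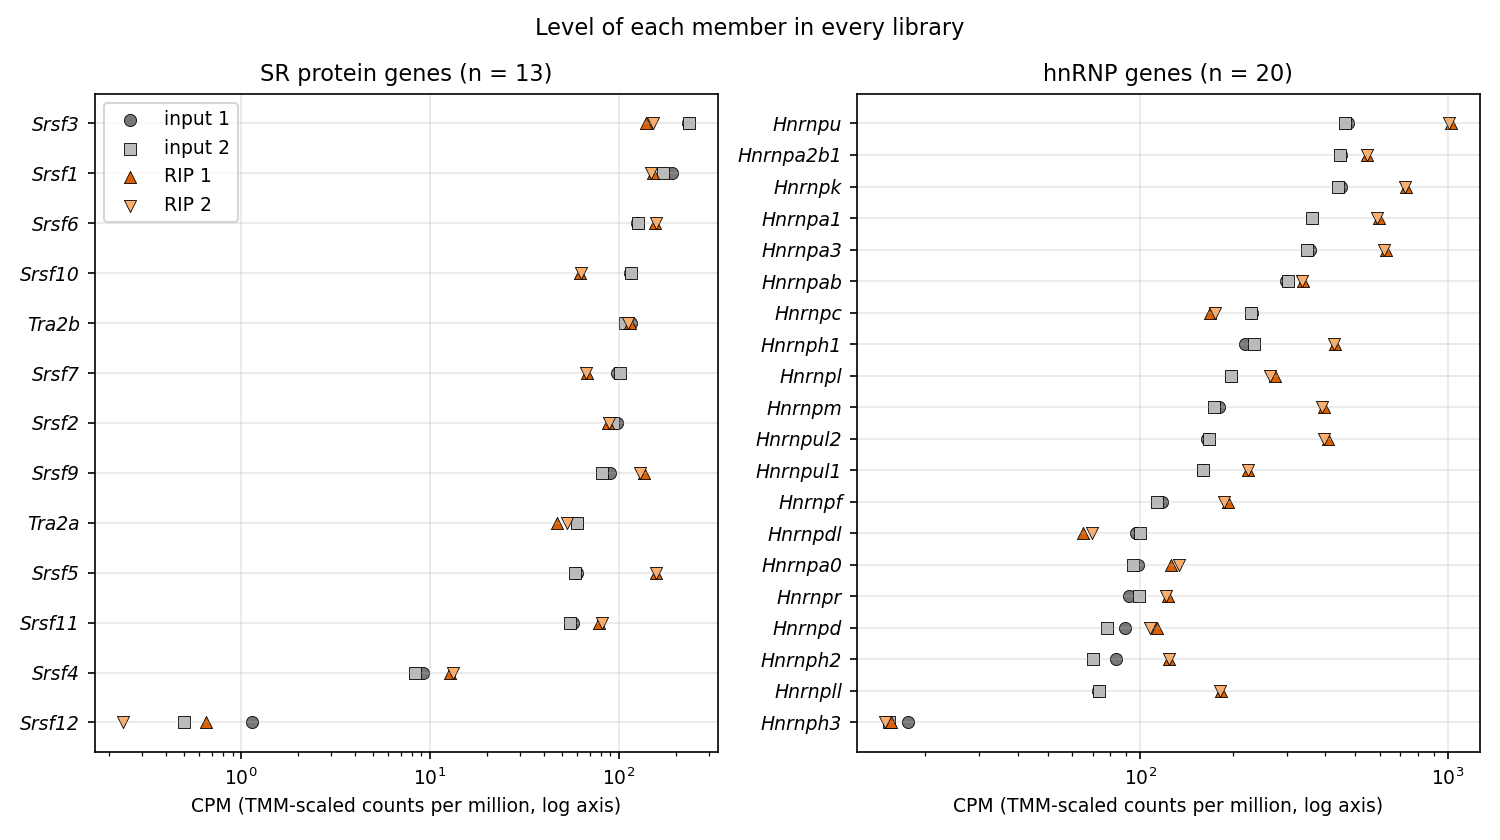
Level of each SR protein gene (left) and hnRNP gene (right) in the 4 libraries, in TMM-scaled CPM on a log axis; grey circles and squares are the input libraries and orange triangles the RIP libraries. Replicates lie close together for most genes, Srsf5 and Hnrnpu stand to the right of their input values, Srsf10 stands to the left, and the libraries overlap for Srsf12, Hnrnph3 and Tra2b.

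**Figure D2:**
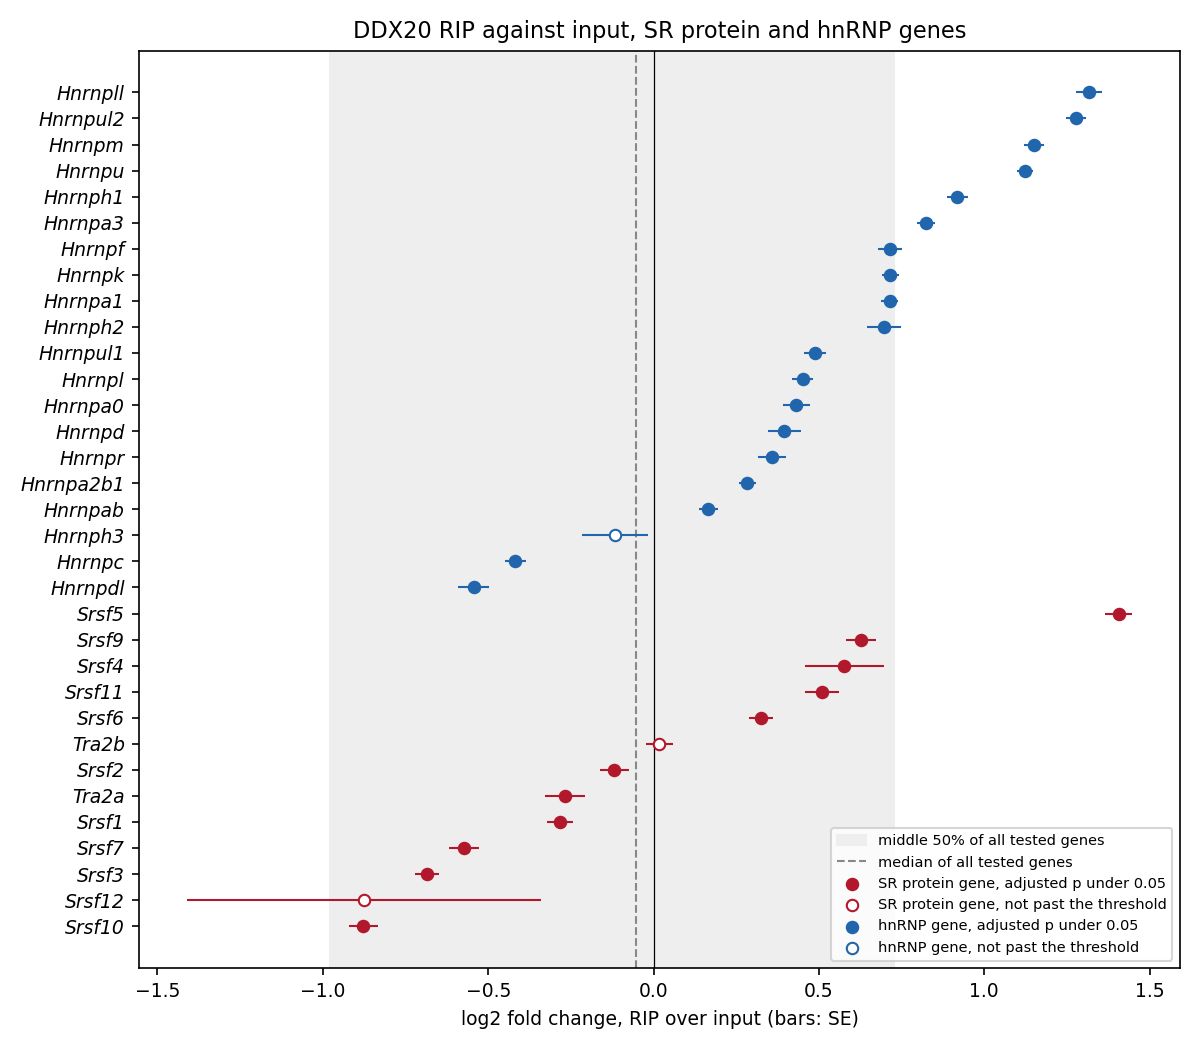
Log2 fold change of RIP over input for each member, with its standard error, SR protein genes below and hnRNP genes above. The shaded band is the middle 50% of all 17422 tested genes; Srsf5 at 1.41 is the highest member and Srsf10 at -0.88 the lowest, and 17 of 20 hnRNP genes lie to the right of 0 with filled points.

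Srsf5 (SRp40), an activator of exon inclusion, was the member with the largest difference. It stood at 59.9 and 58.25 CPM in the input and at 156.4 and 156.7 CPM in RIP, from raw counts of 1478, 1407, 5290 and 5299. Both RIP libraries were far above both inputs, a 2.65-fold difference (log2 fold change 1.41 ± 0.0420, SE, n = 2 libraries per group; edgeR adjusted p = 1.61e-25). That value was higher than 91.8% of all tested genes, and it stayed positive with total counts (1.06). Srsf5 (ENSMUSG00000021134.18) lies on chromosome 12 from 80945504 to 80950507 on the plus strand (GRCm38).

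At the other end of the SR group stood Srsf10 (SRp38), known as a splicing repressor when it loses its phosphates in mitosis or after heat shock. Its values were 114.9 and 115.3 CPM in the input and 62.3 and 63.0 CPM in RIP. The RIP libraries were both below the inputs, by 1.84-fold (log2 fold change -0.88 ± 0.0437; edgeR adjusted p = 4.57e-19). Srsf10 (ENSMUSG00000028676.18) lies on chromosome 4 from 135855747 to 135869908 on the plus strand. The stretch of 90 coding bases with the most neighbouring arginine and serine codons is shown for both genes, because this repeat defines the group while the genes sit at opposite ends of it. Capitals mark codons of adjacent arginine and serine, read from the GENCODE M21 transcripts ENSMUST00000110356.2 and ENSMUST00000126641.1, 5′ to 3′.
Srsf5, coding bases 589 to 678, exon 8, chr12:80949757-80949846 (plus strand): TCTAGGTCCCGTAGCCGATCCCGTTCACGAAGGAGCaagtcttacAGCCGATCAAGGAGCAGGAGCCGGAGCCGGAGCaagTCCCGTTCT
Srsf10, coding bases 310 to 399, exon 4, chr4:135863075-135863164 (plus strand): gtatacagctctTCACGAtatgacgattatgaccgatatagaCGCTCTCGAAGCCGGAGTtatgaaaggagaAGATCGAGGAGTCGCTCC
The Srsf5 stretch holds 22 such codon pairs and the Srsf10 stretch 11. For Srsf10 the search covered a coding sequence of 549 nt, and an annotated longer form of 786 nt was not searched. The 2 counts therefore belong to these transcripts and not to every form of the genes.

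The other SR protein genes above input were Srsf9, Srsf4, Srsf11 and Srsf6. Srsf9 (SRp30c), a close relative of Srsf1 with a short RS tail, stood at 90.1 and 81.1 CPM in the input and at 135.1 and 129.4 CPM in RIP (log2 fold change 0.63 ± 0.0448). Srsf6 (SRp55) stood at 124.6 and 125.6 CPM in the input and at 155.3 and 158.2 CPM in RIP (0.33 ± 0.0367). For each of them both RIP libraries exceeded both inputs. Srsf11 (p54), an SR protein found with the factors that define splice sites, had a log2 fold change of 0.51 ± 0.0506, from 56.9 and 55.3 to 78.3 and 81.4 CPM. Srsf4 (SRp75), which has the longest RS tail of the classical SR proteins, had 0.58 ± 0.119 at a low level, from 9.20 and 8.32 to 12.8 and 13.3 CPM. The largest edgeR adjusted p of these 4 genes was 5.78e-05, for Srsf4. With total counts Srsf6 stood at -0.02 and did not pass the test, nor did Srsf4 at 0.23.

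Below input stood Srsf3, Srsf7, Srsf1, Tra2a and Srsf2. Srsf3, the smallest SR protein and an adaptor for export of messages, stood at 232.8 and 235.9 CPM in the input and at 139.7 and 151.7 CPM in RIP (log2 fold change -0.69 ± 0.0361). Srsf7, which shares the export role, stood at 98.0 and 101.6 CPM in the input and at 67.5 and 66.75 CPM in RIP (-0.57 ± 0.0453). Both RIP libraries lay below both inputs for these genes, the edgeR adjusted p being 2.27e-18 for Srsf3 and 1.56e-13 for Srsf7. Srsf1 (SF2/ASF), the founding SR protein, stood at 190.7 and 171.9 CPM in the input and at 150.8 and 147.3 CPM in RIP, a smaller gap set against inputs that differed by themselves (-0.28 ± 0.0394; edgeR adjusted p = 1.01e-07).

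Tra2a and Tra2b, the homologues of the fly sex-determination factor Transformer-2, bind GAA-rich enhancers. Tra2a stood at 60.35 and 60.2 CPM in the input and at 47.0 and 53.1 CPM in RIP (log2 fold change -0.27 ± 0.0596; edgeR adjusted p = 0.000152). It did not pass the test when input replicate 1 (-0.25), input replicate 2 (-0.27) or RIP replicate 1 (-0.14) was left out. Tra2b stood at 116.2 and 107.4 CPM in the input and at 114.4 and 111.9 CPM in RIP, and the groups overlapped (0.02 ± 0.0419; edgeR adjusted p = 0.710). It turned to -0.04 without input replicate 2 and was called lower with total counts (-0.33).

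Srsf2 (SC35), the usual marker protein of nuclear speckles, stood at 97.8 and 93.2 CPM in the input and at 87.35 and 88.6 CPM in RIP. Its log2 fold change of -0.12 ± 0.0433 passed narrowly (edgeR adjusted p = 0.0140), and it missed the threshold without any 1 of input replicate 1 (-0.06), RIP replicate 1 (-0.07) or RIP replicate 2 (-0.09). In the main fit 6 SR protein genes were lower, but only 5 were with RLE size factors (another scaling), with DESeq2 or with no low-count filter. Of the 6, Srsf2 had the smallest drop with RLE size factors (-0.096). Srsf12, a rarely expressed antagonist of other SR proteins, had only 28, 12, 22 and 8 raw counts in the 4 libraries. Its log2 fold change was -0.88 ± 0.536 and did not pass (edgeR adjusted p = 0.135), though it did without RIP replicate 1 (-1.73).

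Among hnRNP genes, the largest differences belonged to Hnrnpll, Hnrnpul2, Hnrnpm and Hnrnpu. Hnrnpll, known for its role in CD45 splicing in lymphocytes, stood at 73.0 and 73.3 CPM in the input and at 182.8 and 181.5 CPM in RIP (log2 fold change 1.32 ± 0.0392; edgeR adjusted p = 1.42e-25). Hnrnpul2, a relative of Hnrnpu, stood at 164.9 and 167.5 CPM in the input and at 409.0 and 397.1 CPM in RIP (1.28 ± 0.0306). Hnrnpm stood at 180.2 and 173.7 CPM in the input and at 396.8 and 388.8 CPM in RIP (1.15 ± 0.0307). For all of these the RIP libraries were more than 2-fold above the inputs, and replicates differed little.

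Hnrnpu (SAF-A), which attaches chromatin and nuclear RNA to the scaffold of the nucleus, was the most abundant member by CPM. It stood at 473.5 and 463.0 CPM in the input and at 1028 and 1013 CPM in RIP, a 2.18-fold difference (log2 fold change 1.12 ± 0.0245; edgeR adjusted p = 1.62e-29). Hnrnpu (ENSMUSG00000039630.11) lies on chromosome 1 from 178321108 to 178337797 and Hnrnpll (ENSMUSG00000024095.16) on chromosome 17 from 80029487 to 80062334, both on the minus strand. Hnrnpul1, the third member of the U family, was higher by less, from 159.9 and 160.2 to 224.7 and 224.1 CPM (0.49 ± 0.0329).

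The H and F proteins bind runs of guanines near exons, and 3 of the 4 messages of this family were higher in RIP. Hnrnph1 stood at 218.5 and 234.4 CPM in the input and at 429.9 and 426.1 CPM in RIP (log2 fold change 0.92 ± 0.0309). Hnrnph2, encoded on chromosome X, stood at 83.25 and 70.3 CPM in the input and at 124.5 and 124.3 CPM in RIP (0.70 ± 0.0514). Hnrnpf rose from 117.7 and 113.4 to 192.6 and 187.1 CPM (0.72 ± 0.0368). The libraries of the groups did not overlap for any of these genes, as was so for 88% of all tested genes. Hnrnph3 was the exception of the family, at 17.55 and 15.2 CPM in the input against 15.4 and 14.8 CPM in RIP. Its log2 fold change of -0.12 ± 0.101 did not pass the test (edgeR adjusted p = 0.291), and it stood at 0.01 without input replicate 1.

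Hnrnph1 and Hnrnph2 have coding sequences of the same length and 85.9% identity, the closest of the related members compared, so a part of them is shown to let the reader judge whether reads can tell them apart. It is the 90 coding bases with the fewest differences, coding bases 217 to 306 of each, and capitals mark the 7 bases that differ (GENCODE M21 transcripts ENSMUST00000109142.7 and ENSMUST00000113202.7, 5′ to 3′).
Hnrnph1, exons 4 to 5, chr11:50379587-50379873 (plus strand): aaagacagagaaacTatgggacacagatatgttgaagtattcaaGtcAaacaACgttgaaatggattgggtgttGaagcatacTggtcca
Hnrnph2, exon 3, chrX:134605124-134605213 (plus strand): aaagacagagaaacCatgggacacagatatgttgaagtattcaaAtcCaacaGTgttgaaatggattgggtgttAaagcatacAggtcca
The longest run of identical bases in their messages was 34 nt, against reads of 150 nt.

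The A and B type hnRNPs, among the most abundant nuclear proteins, were all higher in RIP but to different extents. Hnrnpa3 stood at 357.7 and 348.4 CPM in the input and at 629.6 and 620.4 CPM in RIP (log2 fold change 0.82 ± 0.0263). Hnrnpa1, the best studied repressor of exon inclusion, went from 361.6 and 363.1 to 598.2 and 590.4 CPM (0.71 ± 0.0259). Hnrnpa0, whose coding sequence lies in a single exon, went from 98.0 and 94.97 to 126.3 and 133.9 CPM (0.43 ± 0.0414). Hnrnpa2b1, which also takes part in RNA transport, went from 449.9 and 445.5 to 544.4 and 545.4 CPM (0.28 ± 0.0255), and Hnrnpab from 297.7 and 302.5 to 338.1 and 335.0 CPM (0.17 ± 0.0283). The order within this family changed with length: Hnrnpab (0.67) stood above Hnrnpa2b1 (0.60) with an offset for coding length, and Hnrnpa1 (0.96) and Hnrnpa0 (0.81) above Hnrnpa3 (0.59) with an offset for exonic length. The direction of its lower end turned with scaling: with total counts Hnrnpa2b1 stood at -0.07 and Hnrnpab at -0.18, both called lower, and Hnrnpa0 at 0.08 did not pass.

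Of the remaining hnRNPs, Hnrnpk, a KH-domain protein that binds cytosine-rich RNA, went from 451.0 and 438.6 to 733.4 and 727.5 CPM (log2 fold change 0.72 ± 0.0253). Hnrnpl, which binds CA repeats, went from 197.1 and 196.7 to 273.7 and 264.7 CPM (0.45 ± 0.0316). Hnrnpd (AUF1), a regulator of the decay of messages with AU-rich elements, went from 89.4 and 78.0 to 113.0 and 107.3 CPM (0.40 ± 0.0495), and Hnrnpr from 92.0 and 98.8 to 123.5 and 121.1 CPM (0.36 ± 0.0420). All 4 were higher in both RIP libraries than in either input, where 88% of all tested genes had no overlap in 1 direction or the other. Hnrnpd (0.05) and Hnrnpr (0.01) did not pass with total counts. The largest edgeR adjusted p among the 17 higher hnRNP genes was 3.45e-06, for Hnrnpab.

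Hnrnpc and Hnrnpdl were the hnRNP messages below input. Hnrnpc, which binds uridine tracts and guards against the use of cryptic exons, stood at 230.1 and 228.6 CPM in the input and at 168.8 and 174.6 CPM in RIP (log2 fold change -0.42 ± 0.0329; edgeR adjusted p = 1.41e-13). Hnrnpdl, a relative of Hnrnpd, stood at 96.9 and 99.6 CPM in the input and at 65.1 and 69.6 CPM in RIP (-0.54 ± 0.0468; edgeR adjusted p = 1.39e-12). Neither gene's libraries overlapped between the groups, as was so for 88% of all tested genes. Hnrnpdl (ENSMUSG00000029328.16) lies on chromosome 5 from 100033577 to 100039664, a neighbour of Hnrnpd (99955935 to 99978938) on the same strand.

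Close relatives did not always behave alike. Fold changes were set side by side for 16 pairs of related members, with no test of the differences, which are given with the standard error that both fits imply. Hnrnpd exceeded Hnrnpdl by 0.94 ± 0.0681, and Hnrnpll exceeded Hnrnpl by 0.86 ± 0.0503 although their coding lengths were 1773 and 1758 nt. Srsf5 exceeded Srsf6 by 1.08 ± 0.0557 and Srsf4 by 0.83 ± 0.126. Srsf9 exceeded Srsf1 by 0.91 ± 0.0596 and Hnrnpul2 exceeded Hnrnpul1 by 0.79 ± 0.0449.

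Other pairs stood close together. Srsf3 and Srsf7 differed by 0.11 ± 0.0579, Hnrnpa3 and Hnrnpa1 by 0.11 ± 0.0370, and Hnrnph1 and Hnrnpf by 0.20 ± 0.0480. In 3 of the 16 pairs the signs were opposite. The longest run of bases shared by the messages of any pair was 34 nt and the shortest 11 nt, so reads of 150 nt hold differences between them.

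Fold change went with coding length, which is the coding sequence of the best-ranked transcript of each gene in GENCODE M21. The 13 SR protein genes had a median coding length of 798 nt (492 to 1533 nt), the 20 hnRNP genes 1304 nt (855 to 2577 nt), and all 14680 coding genes tested 1374 nt. Across the 33 members Spearman's rank correlation between coding length and log2 fold change was 0.647, and across all coding genes 0.637. These points share the same 4 libraries, and genes are not independent replicates. Within the SR group it was 0.549 (n = 13) and within the hnRNP group 0.618 (n = 20). Srsf3 and Srsf10, with the shortest coding sequences of 492 and 549 nt, were among the lowest members, and 3 of the 4 hnRNPs above 2-fold have coding sequences of 2187 nt or more. For Srsf10 the annotation also lists a longer form of 786 nt. With the longest annotated coding sequence of each gene the correlation was 0.418 within the SR group and 0.609 within the hnRNP group.

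Members were also set against coding genes of like length. Coding genes were divided into 20 bins of 734 by coding length, a description added after the data were seen. Of 20 hnRNP genes 13 lay above the middle 50% of their bin, 6 lay within it and 1, Hnrnpdl, lay below. Of 13 SR protein genes 3 lay above it, namely Srsf5, Srsf9 and Srsf6, and the other 10 lay within. By construction the middle 50% leaves equal shares of the coding genes of a bin above and below it. The SR count above it was close to that share, and the hnRNP count exceeded it. The bin median was exceeded by 11 of 13 SR protein genes and 16 of 20 hnRNP genes. The bin that holds Srsf5 had a median log2 fold change of -0.55 against its own 1.41, and the bin of Srsf9 a median of -0.65 against 0.63. Hnrnpul1 has the longest coding sequence of the members, 2577 nt, and at 0.49 stood below the 0.88 of its bin.

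**Figure D3:**
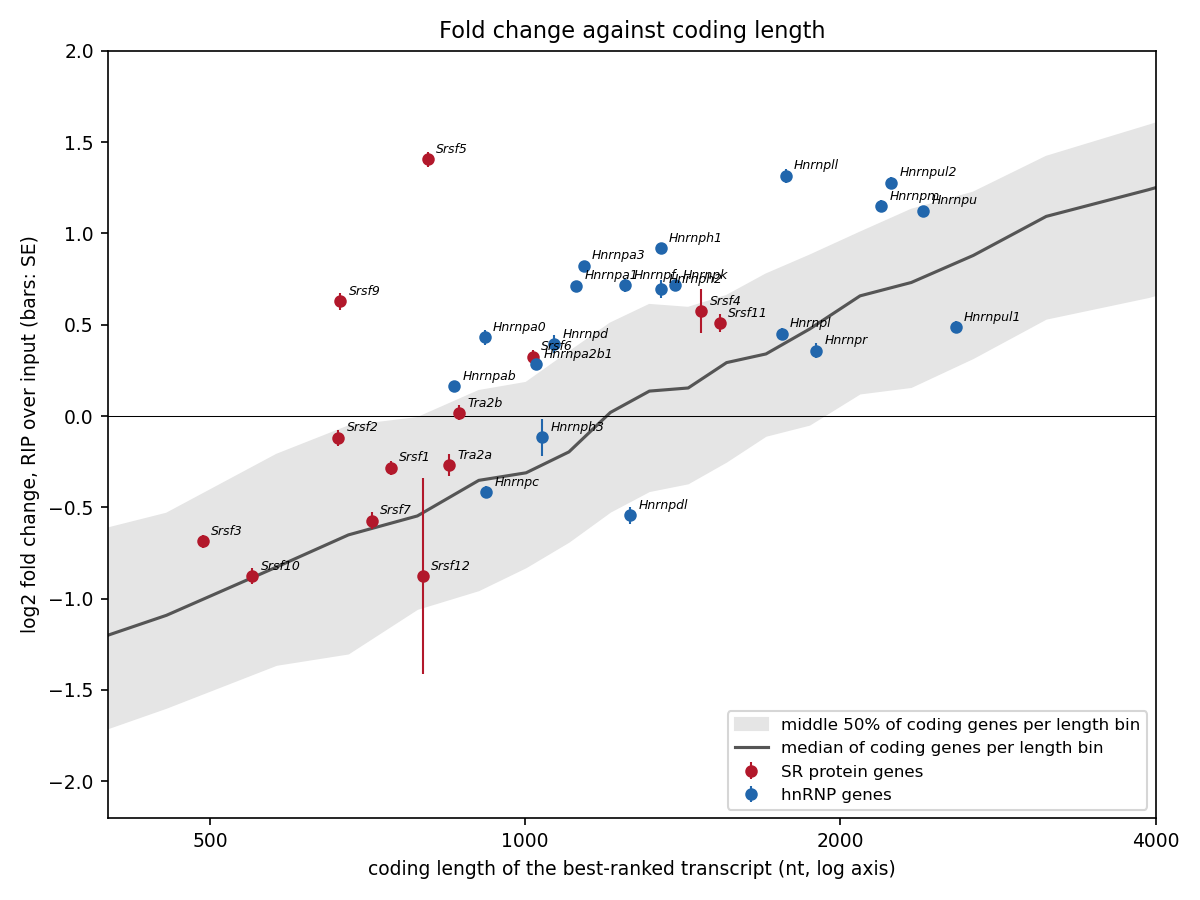
Log2 fold change of RIP over input (with SE) against coding length in nt on a log axis, for SR protein genes (red) and hnRNP genes (blue). The grey line and band are the median and middle 50% of coding genes in 20 length bins; Srsf5 and Srsf9 stand far above the band, Hnrnpdl stands below it, and most SR protein genes lie within it.

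With a smooth offset for coding length, which sets the fold change of each gene against the trend over all coding genes, the groups drew closer. The median of the SR protein genes became 0.39 and that of the hnRNP genes 0.67, while the median of all coding genes was 0.13. In that fit 10 SR protein genes were called higher and none lower, and 15 hnRNP genes were higher and 2 lower, against 44.8% of all coding genes higher and 29.2% lower. Srsf5 stood at 1.96, Srsf9 at 1.33 and Hnrnpll at 1.05, and Srsf3 turned from -0.69 to 0.29. Srsf10 stood at -0.00065 and Hnrnpc at 0.02, and neither passed the test. Hnrnpul1 turned to -0.15 and, with Hnrnpdl at -0.49, was called lower. An offset for the full exonic length gave another picture, with 5 SR protein genes higher and 6 lower at a median of -0.43, and 13 hnRNP genes higher and 5 lower at a median of 0.45, against 40.5% of all genes higher and 29.8% lower. What part length has in the recovery of these messages was not tested.

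**Figure D4:**
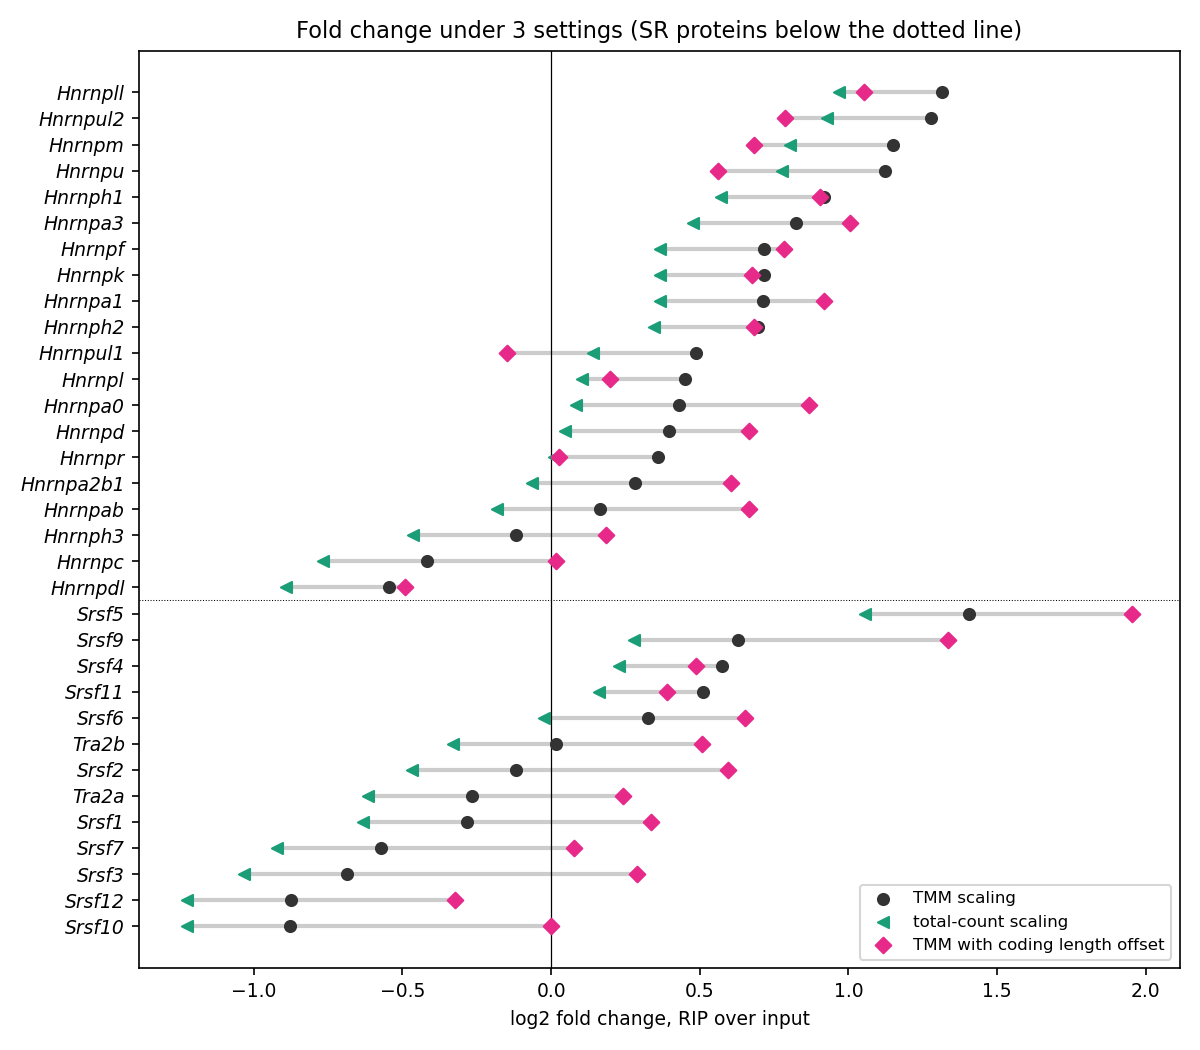
Log2 fold change of RIP over input for each member with TMM scaling (circles), total-count scaling (triangles) and TMM with an offset for coding length (diamonds); hnRNP genes are above the dotted line. Total counts move each gene to the left by a like amount, whereas the offset moves the SR protein genes other than Srsf4 and Srsf11 to the right (Srsf3 from -0.69 to 0.29) and the longest hnRNP genes to the left (Hnrnpu from 1.12 to 0.56).

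Other features of the messages were set against the fold change in the same way. The rank correlation with the length of the 3' untranslated region was -0.412 over the members and -0.632 within the SR group, against 0.266 over all coding genes. With exonic length it was 0.169, against 0.529 over all coding genes. With GC content of the coding sequence it was -0.0949, and with the number of annotated transcripts marked for nonsense-mediated decay -0.0945. Pairs of neighbouring arginine and serine codons numbered 4.05 to 23.5 per 100 codons in SR protein genes and 0.274 to 2.64 in hnRNP genes. Within the SR group the rank correlation between that density and fold change was 0.0934: Srsf9, with the lowest density, and Srsf4, at 21.6 per 100 codons, were both higher in RIP.

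Levels between genes are compared per length, as input CPM per kilobase of annotated exons. On that scale Hnrnpa1 was highest at 114.9, followed by Hnrnpab at 107.9, Hnrnpk at 68.8 and Hnrnpa2b1 at 68.0, and the replicates of Hnrnpk and Hnrnpa2b1 overlap. Srsf9 led the SR group at 51.8, ahead of Srsf2 at 32.3 and Srsf1 at 31.75, whose replicates also overlap. In RIP the order at the top was Hnrnpa1 (188.5), Hnrnpab (121.0) and Hnrnpa3 (115.8), and Srsf5 moved from 14.8 to 39.25 per kilobase, second in its group after Srsf9 (80.0). Srsf12 was lowest in both, at 0.259 and 0.141. Hnrnpr stood at 4.30 over annotated exons of 22199 nt, and its 3' untranslated region spans 19422 nt.

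Some reads of these genes could belong to others. Messages of 11 members matched annotated pseudogenes over at least 150 nt at 95% identity or more, led by Hnrnpa3 with 26 pseudogenes and Hnrnpa1 with 10. Counts assigned to such copies, of any gene type, were at most 7.12% of the member's own (Hnrnph1 in RIP), and 2.12% and 1.28% for Hnrnpa3 in input and RIP. Copies matched 92.3% of the Hnrnpa3 message, 58.5% of Hnrnpa1, 54.1% of Hnrnpf, 51.7% of Srsf5 and 51.35% of Hnrnpk. How reads that fit a member and a copy equally were counted is not stated. The counts at copies therefore do not bound the effect. For 21 members no such copy was found. The kit does not mark strand, and 14 members share exonic bases with another gene, 11 of them with a gene on the other strand. The overlap was largest for Srsf4, where a noncoding transcript on the other strand covers 43.0% of its exons, and for Hnrnpab, where Phykpl covers 29.1%. Srsf2 is overlapped on the other strand by Mettl23 (15.55%) and Mfsd11 (9.7%), and Hnrnpf by unconfirmed transcripts (13.5% and 13%). March2 covers 14.7% of Hnrnpm on the same strand. The values of members that share exonic bases are uncertain for that reason, most of all Srsf4 and Hnrnpab.

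The lists of related genes were read with the same test. Of 14 genes for SR kinases, arginine methyltransferases and import receptors, 7 were higher and 2 lower, with a median log2 fold change of 0.41, against 38.7% of all genes higher and 38.6% lower. The import receptors Tnpo1 (1.11 ± 0.0296), which carries hnRNP A1 into the nucleus, and Tnpo3 (1.30 ± 0.0360), which carries SR proteins, were higher, as was the kinase Srpk1 (0.88 ± 0.0360). Prmt1, the main arginine methyltransferase of hnRNPs, was lower (-1.07 ± 0.0281), from 472.8 and 470.8 to 227.9 and 222.5 CPM, and so was Srpk2 (-0.52 ± 0.0759). With total counts 6 genes of this list were higher and 6 lower, against 28.7% and 50.8% of all genes. With the coding length offset 4 were higher and 5 lower, at a median of -0.05, against 44.8% and 29.2% of coding genes.

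Of 32 SR-related proteins, which carry RS-like stretches but are not classical SR proteins, 19 were higher and 5 lower. The background was 38.7% of all tested genes higher and 38.6% lower. The median of the list was 0.50 against -0.05 for all tested genes. The speckle scaffolds Son (1.82 ± 0.0264) and Srrm2 (1.53 ± 0.0283) and the splicing factor Scaf11 (1.69 ± 0.0272) were the most abundant of those that rose. With the coding length offset they stood at 0.44 for Son, 0.0875 for Srrm2 and 0.63 for Scaf11. Son stood at 371.9 and 368.4 CPM in the input and at 1344 and 1274 CPM in RIP. Luc7l3 (-0.28 ± 0.0544), Rsrc2 (-0.70 ± 0.0779) and U2af1 (-0.10 ± 0.0391) were lower. U2af1, a subunit of the factor that recognises 3' splice sites, did not pass once any single library was left out (values from -0.09 to -0.05) and stood at 0.55 with the coding length offset. With total counts 17 genes of this list were higher and 13 lower, against 28.7% and 50.8% of all genes. With the coding length offset 17 were higher and 9 lower, at a median of 0.13, against 44.8% and 29.2% of coding genes.

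Among 44 other splicing regulators and hnRNP-type proteins 25 were higher and 12 lower, with a median of 0.24, beside the same 38.7% and 38.6% of all genes. Ewsr1 (1.05 ± 0.0310) and Khsrp (1.04 ± 0.0320), which bind RNA in splicing and decay, were among the most abundant of the higher ones. Raly (-0.41 ± 0.0268), a relative of Hnrnpc, Ybx1 (-1.29 ± 0.0323), a cold-shock domain protein that packages messages, and Pcbp2 (-0.36 ± 0.0326), a cytosine-binding relative of Hnrnpk, were lower. With the coding length offset Ewsr1 stood at 0.68 and Khsrp at 0.55, Pcbp2 stood at -0.069, and Raly, at 0.053, missed the threshold. With total counts 15 genes of this list were higher and 19 lower, against 28.7% and 50.8% of all genes. With the exonic length offset 17 were higher and 20 lower, at a median of -0.17, against 40.5% and 29.8%. With the coding length offset 26 were higher and 9 lower, at a median of 0.32, against 44.8% and 29.2% of coding genes. Its balance of directions turned with the setting, and the shares of all genes moved as well.

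**Figure D5:**
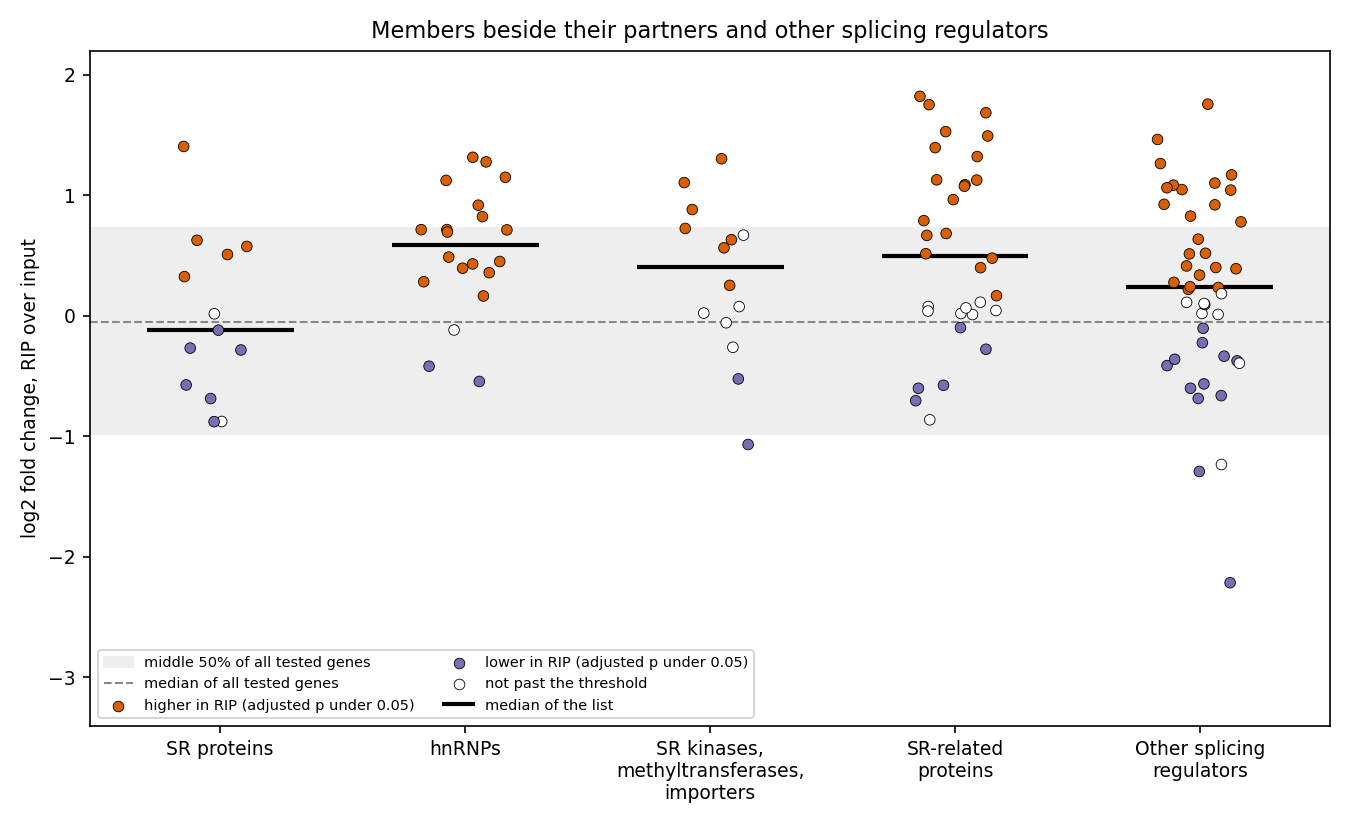
Log2 fold change of RIP over input for the 2 groups of members and 3 lists of related genes, each point a gene, orange where higher in RIP, purple where lower and white where the test was not passed; black lines are list medians. The shaded band is the middle 50% of all tested genes; with TMM scaling the hnRNP median of 0.59 is the highest of the 5 and the SR protein median of -0.12 the lowest, an order that turns with the coding length offset, where the SR median of 0.39 lies above those of the 3 related lists (-0.05, 0.13 and 0.32).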

How the data were processed

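RNA from 2 DDX20 RIP and 2 input libraries was analysed from 1 table of raw read counts per gene as the authors deposited it, with no normalisation. The kit was NEBNext Ultra RNA and reads were paired, 150 nt each, per the labels' protocols. The antibody's catalogue number is not the same on both RIP labels: it changes by 1 character. The submitters' processing notes name GRCm38 and the tools STAR 2.7.2b, featureCounts, SAMtools, cutadapt 4.1 and Trimmomatic 0.36; settings and annotation release were not given in those sources. Nonzero counts were even in 65.4% to 67.4% of cases per library, and a count of 2 was more frequent than a count of 1. Counts may therefore include both mates of a pair, in which case they overstate depth. Halved counts were tried as an alternative and were used for the comparison of replicates with counting noise.

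Symbols, coordinates and sequences came from GENCODE M21 (GRCm38), which names 52081 of 55357 identifiers (94.1%); only 35 carry the same version, so the counted gene models can differ. Genes were kept by filterByExpr, scaled by TMM (factors 1.127, 1.13, 0.880 and 0.892) and tested with edgeR 4.0.16 in R 4.3.3 (robust quasi-likelihood fit; standard errors are the fold change over the square root of F). The pipeline was tested on simulated counts for 17422 genes: of 50 genes changed 1.5-fold 96% were recovered, and 6 unchanged genes were called. Few genes changed in the simulation, as many up as down. It therefore cannot show how calls hold where most genes are called and directions move with scaling. Copies were sought with BLAST 2.17.0. Group and replicate came from sample titles. The members and lists were chosen with earlier results of these data known. Named genes are all members, Ddx20, and from each related list up to 3 called genes per direction with the highest mean CPM, plus cell type markers; 1 gene that the rule named is not reported here. Alternatives were other scalings, filters and tools (DESeq2 1.42.0, limma-voom 3.58.1), a replicate block, leaving out each library, halved counts, a test against a 1.5-fold change, and loess offsets (span 0.3) for length.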

Additional observations from a re-analysis of the deposited data

How the results depend on the processing

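At least 22 of the 33 members kept their direction and side of the threshold under each alternative, except the test against a 1.5-fold change, where 16 did and 17 no longer passed. With total counts, upper-quartile scaling and a test against a 1.5-fold change, respectively, 3, 3 and 1 SR protein genes were higher and 8, 8 and 2 lower, and 12, 13 and 10 hnRNP genes were higher and 5, 5 and 0 lower. The test against a 1.5-fold change called 4210 genes higher and 4426 lower in all, and the coding length offset 4288 lower, against 6734 and 6727. The coding length offset gave 10 SR protein genes higher and 0 lower, and the exonic length offset 5 hnRNP genes lower. The SR median was -0.46 with upper-quartile scaling, -0.47 with total counts, -0.064 with no low-count filter, -0.43 with the exonic length offset and 0.39 with the coding length offset. The hnRNP median was 0.25, 0.24, 0.65, 0.45 and 0.67 in the same order, 0.51 with a filter of 1 CPM in 2 libraries and 0.54 with halved counts. Without 1 library at a time the SR median ran from -0.15 to -0.064 and the hnRNP median from 0.54 to 0.63, 4 to 5 SR protein genes were lower, and the other counts of members stayed at 5, 17 and 2. These shifts exceed the replicate SD of the medians (0.0510 and 0.0495) where given by setting, and the cause was not tested.

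Members that changed sign with total counts (upper-quartile scaling in parentheses) were Srsf6 at -0.023 (-0.016), Hnrnpa2b1 at -0.065 (-0.059), Hnrnpab at -0.18 (-0.18) and Tra2b at -0.33 (-0.32). Tra2b also did so with a filter of 1 CPM (-0.066) and halved counts (-0.037). Without 1 library at a time Tra2b ran from -0.036 to 0.095 and Hnrnph3 from -0.21 to 0.0090. With the coding length offset Hnrnpul1 stood at -0.15, Hnrnpc at 0.016, Srsf7 at 0.078, Hnrnph3 at 0.19, Tra2a at 0.24, Srsf3 at 0.29, Srsf1 at 0.33 and Srsf2 at 0.59. With the exonic length offset Srsf11 stood at -0.042, Hnrnpd at -0.063, Hnrnpul1 at -0.080, Hnrnpa2b1 at -0.095, Tra2b at -0.59, Hnrnpr at -0.67, Hnrnph3 at 0.13 and Srsf2 at 0.18.

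Replicate numbers were shared between the groups, but nothing in the labels pairs the libraries, and the deviations of same-numbered libraries did not correlate (-0.0010). With the replicate number as a block, 6734 genes were higher and 6655 lower, 5 SR protein genes were higher and 6 lower, 17 hnRNP genes were higher and 2 lower, and the medians were -0.12 and 0.59, and no member's call changed. Depth limits Srsf12, with 8 to 28 counts per library.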
